A study of Mus musculus with 16 samples.

Results

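Dppa2, Dppa3 and Dppa4 are genes of the developmental pluripotency-associated group, and they were followed in 16 arrays of mouse cells, clone by clone. Their probes were found by the gene name that the array design gives. Each gene had 1 probe, so that 3 of the 41174 probes on the array read them. All 3 passed the filter on dim probes, which kept the 31423 probes whose signal was well above background on 1 array or more.

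The study asked whether a human artificial chromosome (HAC), a vector that stays outside the host chromosomes and can later be lost, can carry the factors that turn fibroblasts of mouse embryos (MEFs) into iPS cells (induced pluripotent stem cells). MEFs were from C57BL/6 mice (1 array). The 4 iHAC1-iPS clones, all on C57BL/6 (1-A3, 1-B, 1-C3 and 1-D6), carry the vector iHAC1, which holds 2 copies each of Klf4, c-Myc, Sox2 and Oct4 under CAG promoters. The 4 iHAC2-iPS clones, also on C57BL/6 (2-B1, 2-C6, 2-E and 2-N), carry iHAC2, which adds a knockdown (KD) of p53 and 2 further copies of Oct4 to the iHAC1 construct. From each of these a C57BL/6 line that has lost the vector was derived, an iHAC-free iPS line (F-B1 from 2-B1, F-C5 from 2-C6, F-E4 from 2-E and F-N7 from 2-N). After the transfer of either vector, the MEFs that gave the clones were also transfected with microRNA mimics to raise the efficiency of reprogramming. The references were the ES lines B6ES (C57BL/6) and TT2 (C57BL/6 x CBA), with 1 array each, and the iPS line 20D17, which was made with retrovirus vectors on a C57BL/6 x DBA background (1 array). Replicates are therefore separate clones or lines, and MEFs and 20D17 have none. ES and iPS cells were kept on fibroblast feeders, and in RNA from whole cultures fewer cells of a type and less RNA per cell cannot be told apart.

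Dppa2 and Dppa4 are nuclear proteins with a SAP domain, a motif that binds DNA. They act as a pair, bind chromatin in early embryos and ES cells, help to switch on genes of the early embryo such as Dux, and keep promoters of some developmental genes free of DNA methylation. Dppa3, also called Stella or PGC7, is a small maternal protein that protects the maternal genome from demethylation in the zygote, restrains Uhrf1 and with it maintenance DNA methylation, and marks primordial germ cells.

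The probes are shown because every value below is read by them, and no other probe reads these genes. Each is 60 bases long. The files place the Dppa2 probe at chr16:48318794-48318853, the Dppa4 probe at chr16:48293977-48294036 and the Dppa3 probe at chr6:122580134-122580193, all on the plus strand of mm9, and assign them to the transcripts NM_028615, NM_028610 and NM_139218. Each probe is listed with 4 transcript accessions, predicted transcripts among them, so reads from near-identical copies cannot be set aside. No exon annotation of mm9 was used here. Bases 1 to 30 of the Dppa2 and Dppa4 probes and bases 18 to 47 of the Dppa3 probe are given 5′ to 3′, and capitals mark the 21 bases (22 to 42 of the probe) that are also the forward primer of the study's qRT-PCR assay for Dppa3.
Dppa2: aaatgccctacccccaaatatgccgccgta
Dppa4: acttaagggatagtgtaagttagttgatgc
Dppa3: atagGATGCACAACGATCCAGATTTatgtg
The forward primer of the qRT-PCR assay thus lies within the stretch of the Dppa3 transcript that the array probe reads. The reverse primer was not placed here. The Dppa4 and Dppa2 probes lie 24.8 kb apart, and in the RefSeq table of GRCm38.p6 both genes follow each other on chromosome 16, while Dppa3 lies on chromosome 6 between Gdf3 and Nanog.

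Levels are log2 signals relative to the 75th percentile of the array, so a level of 0 is the signal that 75% of the probes stay under. Levels of different probes were not compared. Per array, no spot was saturated and 54.2% to 65.8% of them were well above background. The lowest signal well above background lay between -5.89 and -4.29 on this scale, which sets how low a level can be read.

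Dppa2 was well above background on all 16 arrays. In ES cells its level was 1.93 in B6ES and 1.29 in TT2, and in 20D17 it was 1.86. In the iHAC-free iPS lines it was 1.12 in F-B1, 0.92 in F-C5, 1.16 in F-E4 and 1.20 in F-N7. In iHAC2-iPS clones it was 0.31 (2-B1), 0.04 (2-C6), -0.13 (2-E) and 1.43 (2-N). Only 2-N among these clones lay within the range of the ES lines, and the 4 iHAC-free iPS lines sat just under it. In the iHAC1-iPS clones the level was -2.03 in 1-A3, -1.96 in 1-B, -0.91 in 1-C3 and -2.54 in 1-D6, and in MEFs it was -3.07. Every iHAC1-iPS clone therefore lay under every other iPS or ES line and above the MEF array, by 0.52 (1-D6) to 2.15 (1-C3).

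Dppa4, the partner of Dppa2, varied among the iHAC1-iPS clones. It was -6.53 in 1-A3, where the probe was not well above background, -2.32 in 1-B, 0.09 in 1-C3 and -3.99 in 1-D6. With the lowest signal well above background as the limit for 1-A3, the level in 1-C3 was higher by at least 5.36 on the log2 scale. In the other pluripotent lines the gene was nearly level. It was 2.67 in 2-B1, 2.51 in 2-C6, 2.73 in 2-E and 3.57 in 2-N, and 2.73 in F-B1, 2.77 in F-C5, 3.02 in F-E4 and 3.0 in F-N7. B6ES gave 3.37, TT2 gave 2.97 and 20D17 gave 2.98. In MEFs the probe read -8.16 and was not well above background.

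Dppa3 was well above background in 1 of the 4 iHAC1-iPS clones, 1-C3, at -4.43. The probe read -6.09 in 1-A3, -7.50 in 1-B and -6.52 in 1-D6, all under the lowest signal that counts as well above background on those arrays, so these values have no order among themselves. MEFs gave -5.50, which was well above background by a small margin (the lowest such signal on that array was -5.89). iHAC2-iPS clones gave 1.43 in 2-B1, -0.43 in 2-C6, 1.49 in 2-E and 2.66 in 2-N. The iHAC-free iPS lines gave 3.38 in F-B1, 3.83 in F-C5, 4.03 in F-E4 and 3.82 in F-N7, and the ES lines gave 3.64 (B6ES) and 4.06 (TT2). The line 20D17, at 2.36, stood under both ES lines and all 4 iHAC-free iPS lines, and above 3 of the 4 iHAC2-iPS clones. The clone 1-C3 had the highest level of each of the 3 genes among iHAC1-iPS clones, and 2-N had the highest among iHAC2-iPS clones.

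**Figure D1:**
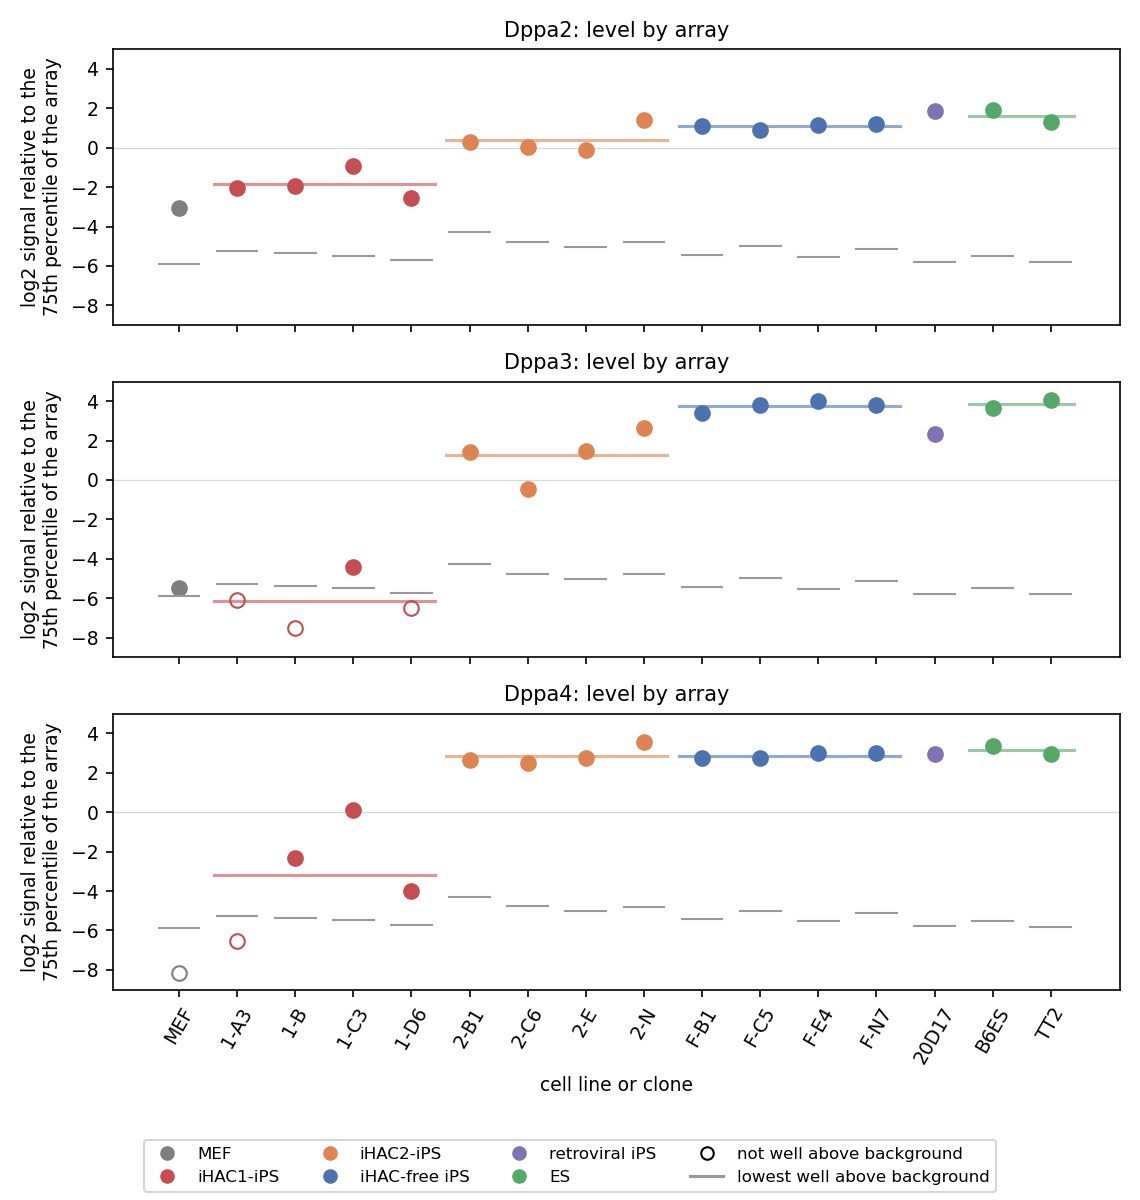
Level of Dppa2, Dppa3 and Dppa4 on each of the 16 arrays (vertical axis: log2 signal relative to the 75th percentile of the array), with filled points where the probe was well above background, open points where it was not, coloured lines at group means and grey ticks at the lowest signal well above background of each array. The iHAC1-iPS clones lie under all other iPS and ES lines in each panel, with Dppa4 at 0.09 in 1-C3 and not well above background in 1-A3.

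The comparison of iHAC1-iPS clones with ES cells asks how near iPS cells that still hold the first vector come to ES cells. All 3 genes were called lower in iHAC1-iPS clones. Beside this count, 14.3% of the tested probes were called in this comparison (adjusted p under 0.05 and a difference of at least 2-fold), and 7.13% were called lower. Every iHAC1-iPS clone lay under both ES lines for each of the 3 genes, as it did for 24.5% of the tested probes. The mean of Dppa2 was -1.86 ± 0.68 (SD, n = 4) in iHAC1-iPS clones against 1.61 ± 0.45 (SD, n = 2) in ES cells, a difference of -3.47 (SE 0.45, limma adjusted p = 0.000474), or 11.1-fold. The mean of Dppa4 was -3.18 ± 2.79 against 3.17 ± 0.28, a difference of -6.35 (SE 1.23, adjusted p = 0.00406), or 81.7-fold, with the dim spot of 1-A3 taken as it was read. Single arrays moved this size, to -5.24 without 1-A3 and to -7.44 without 1-C3, and without B6ES the adjusted p was 0.0497. The distance from the ES mean varied by clone. For Dppa4 it was -3.07 in 1-C3, -5.49 in 1-B and -7.15 in 1-D6, and in 1-A3 the gene was at least 345-fold lower, taking the lowest signal well above background as its limit.

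Dppa3 gave a mean of -6.13 ± 1.28 in iHAC1-iPS clones against 3.85 ± 0.30 in ES cells, a difference of -9.99 (SE 0.80, adjusted p = 2.77e-05). Because 3 of the 4 clones were not measured above background, the size is a reading of dim spots. With such values set at the lowest signal well above background, an alternative chosen after seeing the data, the difference was -9.05 (530-fold), and with normexp background correction it was -6.60 (96.7-fold). Clone by clone, Dppa3 was at least 555-fold lower than the ES mean in 1-A3, at least 596-fold lower in 1-B and at least 763-fold lower in 1-D6, and in 1-C3, where it was measured, it was 312-fold lower. The same correction gave differences of -2.91 for Dppa2 and -4.92 for Dppa4. When MEF and the other iPS arrays were left out of the fit, Dppa4 missed the threshold (adjusted p = 0.0556). On the slide that held the ES lines and 1 iHAC1-iPS clone (1-D6), the clone differed from the ES mean by -4.16 for Dppa2, -10.37 for Dppa3 and -7.15 for Dppa4.

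Both kinds of vector-bearing clones were also compared with each other. All 3 genes were called lower in iHAC1-iPS than in iHAC2-iPS clones, where 20.0% of the tested probes were called and 11.0% were called lower. The difference of Dppa2 was -2.27 (SE 0.37, adjusted p = 0.000921), that of Dppa4 -6.06 (SE 1.00, adjusted p = 0.000995) and that of Dppa3 -7.42 (SE 0.65, adjusted p = 3.05e-05). In each case the highest iHAC1-iPS clone was under the lowest iHAC2-iPS clone, as was so for 17.5% of the tested probes. With the floor for dim values, Dppa3 differed by -6.48 and Dppa4 by -5.74. With normexp correction it was -1.82 for Dppa2, -4.13 for Dppa3 and -4.63 for Dppa4, so the order of Dppa3 and Dppa4 turned. Without 1-A3 the Dppa4 difference was -4.94 and without 1-C3 it was -7.15. The 2 groups lay on different slides, and their spot signals were extracted from the scans with different software versions. Slide, software version and vector therefore cannot be told apart here.

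**Figure D2:**
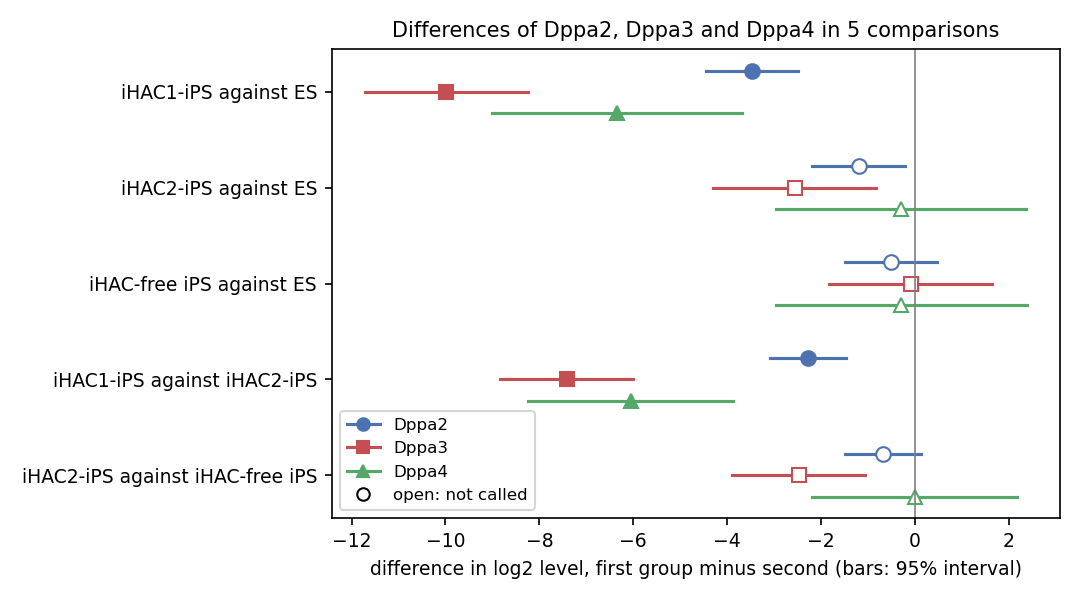
Difference in log2 level (horizontal axis) of Dppa2, Dppa3 and Dppa4 in 5 comparisons, as the first group minus the second, with 95% intervals from limma and filled points where the probe was called. Every gene is called in both comparisons that hold iHAC1-iPS clones and none is called in the other comparisons, in which the Dppa4 points lie within 0.30 of 0.

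Against ES cells, the iHAC2-iPS clones differed by gene. None of the 3 was called by limma, while 6.80% of the tested probes were. Dppa4 differed by -0.30 (95% interval -2.96 to 2.37, adjusted p = 0.888). The fit takes this interval from the spread in all groups, the iHAC1-iPS clones among them. Dppa2 differed by -1.20 (-2.19 to -0.21, adjusted p = 0.0975). Dppa3 differed by -2.57 (-4.30 to -0.83, adjusted p = 0.0559), and all 4 clones lay under both ES lines, as they did for 16.7% of the tested probes. At an unadjusted p under 0.05, 2 of the 3 genes passed, Dppa2 and Dppa3. Leaving out the clone 2-N changed the calls of these genes. Without it, Dppa2 differed by -1.54 (adjusted p = 0.0260) and Dppa3 by -3.02 (adjusted p = 0.0283). Dppa3 also passed with normexp correction (adjusted p = 0.0114), without the filter on dim probes (0.0293), with the slide as a random block (0.0311) and with dim values set at the lowest signal well above background (0.0103). No slide and no version of the extraction software held both groups, so slide, software version and cell group cannot be told apart here.

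The iHAC-free iPS lines lay close to ES cells. None of the 3 genes was called, against 0.363% of the tested probes, and none had an unadjusted p under 0.05. Dppa2 differed by -0.51 (95% interval -1.50 to 0.48, adjusted p = 0.551), Dppa3 by -0.09 (-1.82 to 1.65, adjusted p = 0.962) and Dppa4 by -0.29 (-2.96 to 2.38, adjusted p = 0.914). All 4 lines read Dppa2 under both ES lines, the nearest arrays being F-N7 at 1.20 and TT2 at 1.29, and 22.6% of the tested probes had the lines under both ES lines in the same way. For Dppa3, 3 of the 4 lines lay within the range of the ES lines. The intervals leave room for differences of 2.83-fold for Dppa2 and larger ones for Dppa3 and Dppa4. These intervals use the spread of all groups, and a fit on the arrays of the 2 groups alone gave an SE of 0.226 in place of 0.80 for Dppa3 and of 0.175 in place of 1.23 for Dppa4, with no call for either. These arrays too lay on other slides than the ES lines and were extracted with another software version.

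Each iHAC-free iPS line was also set beside the clone it came from. Dppa3 was higher in the line in all 4 pairs. It was 1.95 higher in F-B1 than in 2-B1, 4.26 higher in F-C5 than in 2-C6, 2.54 higher in F-E4 than in 2-E and 1.17 higher in F-N7 than in 2-N. The clone with the lowest level, 2-C6, thus gave the largest step, and after it the 4 lines spanned 0.65, where the clones had spanned 3.09. Dppa2 was 0.81 higher in F-B1, 0.88 in F-C5 and 1.29 in F-E4 than in their clones, whereas F-N7 differed from 2-N by -0.23. Dppa4 moved by 0.07, 0.25, 0.29 and -0.58 in the same order. All 3 genes had a smaller SD among the iHAC-free iPS lines (0.13 for Dppa2, 0.27 for Dppa3, 0.15 for Dppa4) than among the iHAC2-iPS clones (0.70, 1.28 and 0.48), as a description, since the difference in spread was not tested. Of all tested probes, 76.5%, 36.8% and 69.5% had a larger SD than these genes among the lines. Among the clones the shares were 22.8%, 6.53% and 40.9%, in the same order.

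**Figure D3:**
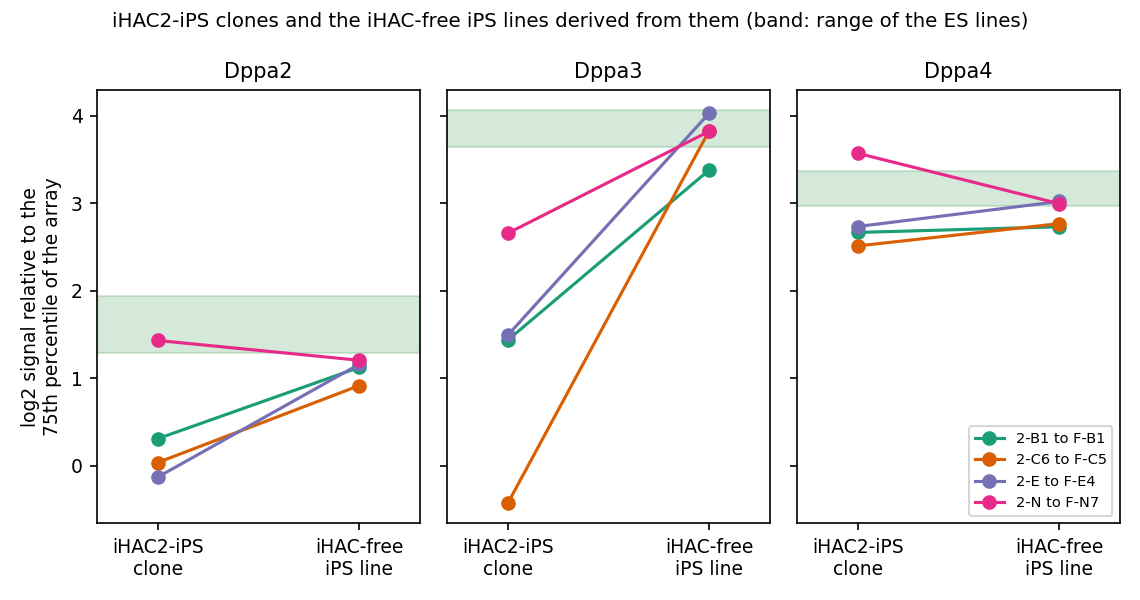
Level of each gene (log2 signal relative to the 75th percentile of the array) in 4 iHAC2-iPS clones, joined to the iHAC-free line that came from each, with a green band for the range of the ES lines B6ES and TT2. Dppa3 goes up in 4 of 4 pairs, by 1.17 to 4.26, whereas Dppa2 and Dppa4 go down in the pair of 2-N and F-N7.

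In the limma fit of these groups, 0.815% of the tested probes were called and none of the 3 genes was. The difference of iHAC2-iPS clones from iHAC-free iPS lines was -2.48 for Dppa3 (95% interval -3.90 to -1.06, adjusted p = 0.0896), -0.69 for Dppa2 (-1.50 to 0.12, adjusted p = 0.346) and -0.01 for Dppa4 (-2.18 to 2.17, adjusted p = 0.998). Dppa3 had an unadjusted p under 0.05, the other genes did not. Its clones all lay under its lines, as was so for 4.74% of the tested probes. Without 2-N its difference was -2.94 (adjusted p = 0.0256), and it was also called with normexp correction (adjusted p = 0.0101) and with dim values set at the lowest signal well above background (0.0293). Within slides, the Dppa3 difference was -1.56 on the slide with the pairs of 2-B1 and 2-N and -3.40 on the slide with the pairs of 2-C6 and 2-E, each with 2 clones against 2 lines. For Dppa4 the slides gave 0.26 and -0.27.

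Put in order of their means, Dppa2 rose from MEFs (-3.07) over iHAC1-iPS (-1.86), iHAC2-iPS (0.41) and iHAC-free iPS (1.10) to ES cells (1.61) and 20D17 (1.86). In this order iHAC1-iPS and iHAC2-iPS differed beyond their spread, while iHAC2-iPS and iHAC-free iPS, and iHAC-free iPS and ES cells, were not shown to differ. Dppa3 was near background in iHAC1-iPS (-6.13) and MEFs (-5.50), which have no order between them, and ran from there over iHAC2-iPS (1.29) and 20D17 (2.36) to iHAC-free iPS (3.77) and ES cells (3.85). Dppa4 ran from MEFs (not above background) over iHAC1-iPS (-3.18) to iHAC2-iPS (2.87), iHAC-free iPS (2.88), 20D17 (2.98) and ES cells (3.17), the last 4 within 0.30. MEFs and 20D17, with 1 array each, allow no test. Against the MEF array, ES cells were 25.7-fold higher in Dppa2 and 655-fold higher in Dppa3, and Dppa4 was at least 532-fold lower in MEFs than the ES mean.

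The other genes with the Dppa name on the array were Dppa5a, which codes for an RNA-binding protein of ES cells, and Dppa1, whose probe was not well above background on any array. Dppa5a was read by 2 probes, and the brighter gave -1.67 in 1-A3, 0.44 in 1-B, 3.28 in 1-C3 and -1.18 in 1-D6, so that 1-C3 led among iHAC1-iPS clones as for Dppa4. The iHAC2-iPS clones gave 7.71 to 9.46 and the ES lines 8.41 and 8.98. Its difference of iHAC1-iPS clones from ES cells was -8.48 (limma adjusted p = 0.000307).

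Among genes of DNA methylation, chosen because Dppa3 acts on Uhrf1 and Dppa2 and Dppa4 keep promoters free of methylation, 5 of 10 were called between iHAC1-iPS clones and ES cells, 4 lower and 1 higher, with a median difference of -1.13 beside 0.04 over all tested probes. Dnmt3l, a cofactor of the de novo methyltransferases, differed by -7.75 (adjusted p = 0.000438), Dnmt3a, such a methyltransferase, by -2.42, and Tet1, which oxidises methylcytosine, by -2.11. Uhrf1 itself was read at 4.10 to 4.49 in iHAC1-iPS clones and at 4.26 to 4.53 in ES lines and was not called. Between iHAC1-iPS and iHAC2-iPS clones 7 of the 10 were called, 6 of them lower. None was called in the other 3 comparisons, where 1, 0 and 0 had an unadjusted p under 0.05 (iHAC2-iPS against ES, iHAC-free iPS against ES and iHAC2-iPS against iHAC-free iPS).

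Of 14 listed names of genes of the early embryo and of development that are known to depend on Dppa2 and Dppa4, 8 had a probe and all 8 were tested. Dux (listed also under its other name, Duxf3), Zscan4d, Zscan4f, Tdpoz3 and Tdpoz4 had none. Between iHAC1-iPS clones and ES cells 5 were called, all lower, with a median of -1.96. Syce1, a protein of the synaptonemal complex, differed by -7.55 (adjusted p = 0.000263) and Mael, a factor of the piRNA pathway, by -6.41 (adjusted p = 0.000211), and neither was well above background in any iHAC1-iPS clone. As bounds, Syce1 was at least 41.7-fold and Mael at least 26.0-fold lower in these clones. In iHAC2-iPS clones against ES cells 1 was called, Zscan4c, a gene of the 2-cell stage that some ES cells switch on for a time, at -2.99 (adjusted p = 0.00792), and it was well above background on 4 of 16 arrays and in 0 of the 4 iHAC2-iPS clones, which bounds it at least 2.52-fold lower there. Against iHAC2-iPS clones 3 were called lower in iHAC1-iPS clones, and none was called in the 2 comparisons with iHAC-free iPS lines, where 2 (against ES) and 1 (iHAC2-iPS) had an unadjusted p under 0.05.

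Dppa3 marks primordial germ cells, and of 9 other such genes with a probe, 6 were called lower in iHAC1-iPS clones than in ES cells (median -1.68). Ddx4, an RNA helicase of germ cells, differed by -6.41 (adjusted p = 0.000794), Dazl, an RNA-binding protein of germ cells, by -4.48 and Ifitm1, a membrane protein, by -4.24. Dazl was well above background in 0 of the 4 iHAC1-iPS clones, so it was at least 5.60-fold lower there, and Ddx4 in 1 of the 4. Against ES cells, 3 were lower in iHAC2-iPS clones (Nanos3 at -1.78, Tfap2c at -1.42 and Prdm1 at -1.05) and none was called in iHAC-free iPS lines, where 1 had an unadjusted p under 0.05. Nanos3 was not well above background in any iHAC2-iPS clone and was at least 2.83-fold lower. Between iHAC1-iPS and iHAC2-iPS clones 4 were called lower and 1 higher. Tfap2c, a transcription factor needed by primordial germ cells, was the one called between iHAC2-iPS clones and vector-free lines, at -1.89 (adjusted p = 0.0236). In that comparison 7 of the 9 had an unadjusted p under 0.05, with a median of -1.29.

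Dppa3 is also a maternal effect gene, one whose product in the egg the embryo needs. Of 6 other such genes that were tested, 4 were called lower in iHAC1-iPS clones than in ES cells (median -2.81). Khdc3, a part of the subcortical complex of the egg, differed by -9.95 (adjusted p = 0.00103) and Ooep, a part of the same complex, by -8.74 (adjusted p = 7.63e-05). Khdc3 was not well above background in any iHAC1-iPS clone, which bounds it at least 261-fold lower, and Ooep was in 1 of them, so both sizes rest on dim spots. Khdc3 in iHAC2-iPS clones differed from ES cells by -6.75 (adjusted p = 0.0191) and from iHAC-free iPS lines by -5.60 (adjusted p = 0.0494), with 2 of these clones well above background. Nlrp14, also expressed in eggs, differed by -2.42 and -1.75 in these comparisons, and both were called. It was well above background in 0 of the 4 iHAC2-iPS clones, so it was at least 1.52-fold lower than in ES cells, and no fold can be given against iHAC-free iPS lines. None of the 6 was called between iHAC-free iPS lines and ES cells, where 2 had an unadjusted p under 0.05. Between iHAC1-iPS and iHAC2-iPS clones 2 were called lower.

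Of 12 pluripotency transcription factors, 11 had a named probe, and Nanog had none under that name. Among the 11, 7 were called lower and 2 higher in iHAC1-iPS clones than in ES cells (median -2.46). Zfp42, also called Rex1, differed by -8.74, Esrrb, a nuclear receptor, by -8.61 and Tfcp2l1 by -6.03. Zfp42 and Esrrb were each well above background in 2 of the 4 clones. Pou5f1 (Oct4) and Myc, which the vector carries, were the genes called higher, by 2.80 and 4.74. Klf4 (-3.06, adjusted p = 0.00313) and Sox2 (-2.46, adjusted p = 0.0146), which it also carries, were called lower. Whether the probes of these 4 genes read the copies on the vector was not tested. By qRT-PCR, the paper reports more transcript of each factor from the vector than from the endogenous gene in iHAC1-iPS cells. Zfp42, Klf4 and Myc were called in iHAC2-iPS clones against ES cells (-3.08, -2.33 and 2.70). None was called in iHAC-free iPS lines, where 2 had an unadjusted p under 0.05. Between iHAC1-iPS and iHAC2-iPS clones 4 were lower and 2 higher, and between iHAC2-iPS clones and vector-free lines Myc (4.15) and Pou5f1 (2.35) were higher and Klf4 (-2.62) was lower. In the latter comparison 6 of the 11 had an unadjusted p under 0.05. The members of these lists were chosen with earlier results of these data known, and their counts are descriptions.

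Markers of other cells moved along with the 3 genes in part. All 10 fibroblast markers were well above background on every array, MEFs and feeder-grown cultures alike. Their summed level lay at 8.25 to 9.27 in iHAC1-iPS clones, 8.60 in MEFs, 7.16 to 8.61 in iHAC2-iPS clones, 7.93 to 8.53 in iHAC-free iPS lines, 8.76 in 20D17 and 6.66 to 8.05 in ES lines. Signals were summed on the linear scale, so the brightest genes weigh most. Thy1 and S100a4 had higher means in iHAC1-iPS clones (6.13 and 6.37) than in MEFs (3.66 and 5.03). The other markers were lower in these clones than in MEFs, from Col1a2 (6.65 against 6.77) to Lum (0.05 against 3.27). Against ES cells 4 of the 10 were called higher in iHAC1-iPS clones (Col3a1 by 2.71, Col1a1 by 2.17 and Pdgfrb by 1.93 among them), and 2 against iHAC2-iPS clones. Of all tested probes, 14.3% were called, in either direction, in the first of these comparisons and 20.0% in the second. Among iHAC1-iPS clones the sum was 8.93 in 1-A3, 8.41 in 1-B, 8.25 in 1-C3 and 9.27 in 1-D6, the lowest in the clone with the highest levels of Dppa2, Dppa3 and Dppa4. The part of these cells in the result was not tested.

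The 6 trophectoderm markers summed to -0.75 in 1-A3, 3.66 in 1-B, 4.51 in 1-C3 and 0.99 in 1-D6, the same order as for Dppa4. The ES lines gave 5.49 and 6.35 and the iHAC2-iPS clones 5.05 to 6.67. MEFs, where Dppa4 was not well above background, gave 4.18, above 1-A3, 1-B and 1-D6. The keratins Krt8 and Krt18 had the highest means of the 6 in every group and so weigh most in these sums. Elf5 and Hand1 were well above background in 0 of the 4 iHAC1-iPS clones. Between iHAC1-iPS clones and ES cells 4 of the 6 were called lower, Cdx2 at -4.64, and the keratins Krt8 at -4.34 and Krt18 at -3.67 among them, and Cdx2 was well above background in 2 of the 4 clones. In iHAC2-iPS clones against ES cells Cdx2 was lower (-5.12) and Elf5 higher (2.18), and between iHAC2-iPS clones and vector-free lines Elf5 was higher (2.35). Cdx2 was not well above background in any iHAC2-iPS clone and was at least 9.18-fold lower, and Elf5 was well above background in 1 of the 2 ES lines and 1 of the 4 iHAC-free iPS lines. The primitive endoderm markers (6, of which 5 were tested and Gata4 was not well above background on any array) summed to -0.69 to 3.14 in iHAC1-iPS clones, -0.78 to 0.46 in iHAC2-iPS clones, 0.22 to 2.65 in iHAC-free iPS lines and 0.21 to 2.97 in ES lines. Sox7 was called lower in iHAC1-iPS (-2.40) and iHAC2-iPS clones (-2.75) than in ES cells, and was well above background in 3 and 2 of the 4 clones. The part of either list in the levels of the 3 genes was not tested.

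Genes near the 3 were read to show whether the differences reached along the chromosome. Within 250 kb of the Dppa4 probe the array had 4 probes, and those of Dppa4 and Dppa2 were the tested ones. The others, for Gm7275 and for a transcript known only by a cDNA clone, were not well above background on any array. Around Dppa3, 13 of the probes tested within 250 kb are described beside its own. Of these, 4 were called between iHAC1-iPS clones and ES cells, where 14.3% of all tested probes were called. Gdf3, a TGF-beta family ligand of pluripotent cells whose probe lies 23.4 kb away, differed by -0.28 (adjusted p = 0.735), and its level in iHAC1-iPS clones was 0.94 to 2.74 against 2.26 and 2.36 in ES lines. On the other side, a probe 84.0 kb away that the files name only by an Ensembl transcript was called lower, at -2.76 (adjusted p = 0.0174).

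Farther out, Rimklb at 169 kb, an enzyme of N-acetylaspartylglutamate synthesis, was called lower, at -2.04 (adjusted p = 0.00104), and so was an unnamed predicted transcript at 183 kb, at -1.39 (adjusted p = 0.0460). Apobec1, an RNA-editing cytidine deaminase, was called higher on the probe at 52.1 kb (1.24, adjusted p = 0.0460), while its other probe, at 40.5 kb, gave 0.62 (adjusted p = 0.203). Mfap5 (0.29), Foxj2 (0.54), 1700063H04Rik (-1.76) and the 2 probes each of Slc2a3 (-0.27 and -1.30) and C3ar1 (0.85 and 0.58) were not called in that comparison. The Slc2a3 probes, which read a glucose transporter, were both called lower in iHAC1-iPS than in iHAC2-iPS clones (-1.50 and -2.69), as were Rimklb (-1.07) and the predicted transcript (-2.02). Of all tested probes, 20.0% were called in that comparison and 11.0% were called lower. Against ES cells, 1 of the 13 was called in iHAC2-iPS clones, Apobec1 on the probe at 52.1 kb (1.65), and 0 in iHAC-free iPS lines. Over all tested probes the shares were 6.80% and 0.363%. In iHAC2-iPS clones against iHAC-free iPS lines none of the 13 was called.

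**Figure D4:**
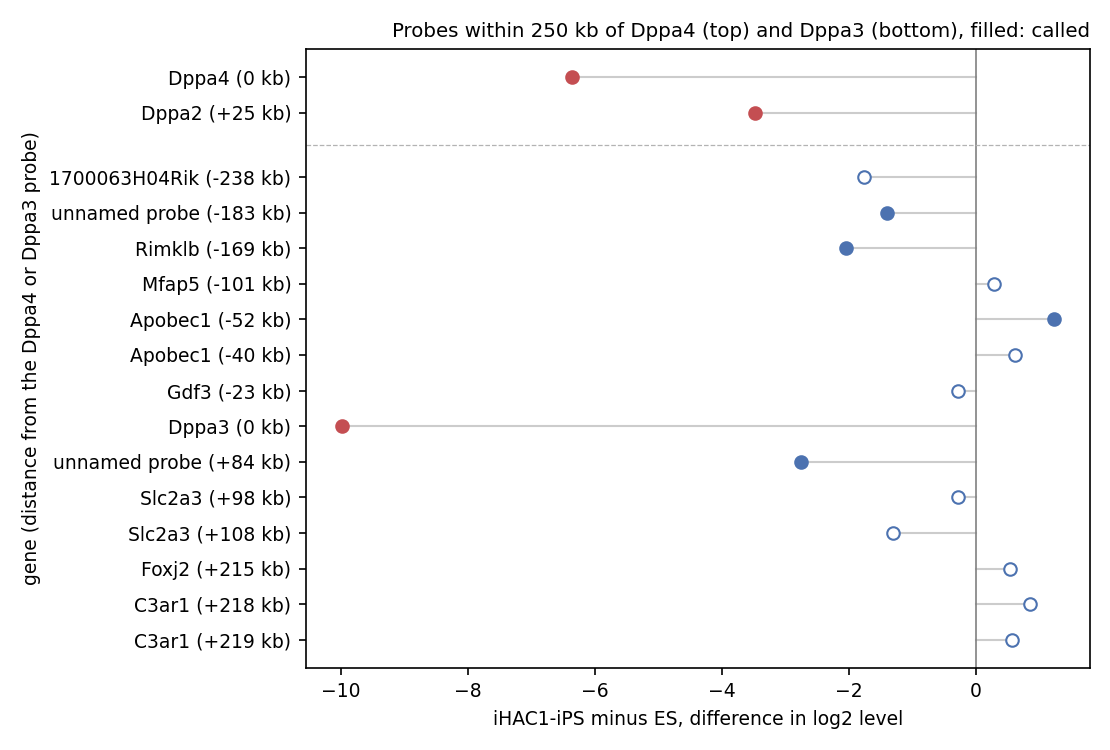
Difference in log2 level between iHAC1-iPS clones and ES cells (horizontal axis) for tested probes within 250 kb of Dppa4 and of Dppa3, listed by distance from those probes, with the 3 genes in red and filled points for called probes. The Dppa3 difference of -9.99 stands beside values from -2.76 to 1.24 for the 13 other probes of its region.

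The profiles of the 3 genes over the 16 arrays were compared with those of all other probes by the root mean square (RMS) difference of log2 levels, after centring each probe on its mean. This is a description, and the arrays share groups, slides and software versions. Levels were not scaled, so the RMS takes in how widely a gene ranges as well as its pattern. The 5 genes nearest to Dppa4 were Tex19.1 (RMS 0.52), which restrains retrotransposons, Gtsf1l (0.61), Tdh (0.79), the threonine dehydrogenase of mouse ES cells, Sec14l4 (0.90) and Tdrd12 (1.04), a Tudor protein of the piRNA pathway. Tex19.1 gave -6.16 in 1-A3, -1.30 in 1-B, 0.42 in 1-C3 and -4.09 in 1-D6, the order that Dppa4 had. Tdh, at -1.65, 3.19, 4.66 and 1.90, had it too. The genes nearest to each member were picked over these same arrays, so an order of clones shared with it follows in part from the choice.

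The nearest to Dppa3 were Ooep (RMS 0.94), Pramel13 (1.06), 2410003L11Rik (1.17), Dnmt3l (1.22) and Mael (1.29). In the iHAC2-iPS clones Ooep gave 0.93 in 2-B1, -0.33 in 2-C6, -0.01 in 2-E and 3.51 in 2-N, so that 2-C6 was lowest and 2-N highest, as for Dppa3. The nearest to Dppa2 were Sfmbt2 (0.40) and Jarid2 (0.46), both tied to Polycomb repression, with Clnk (0.42), Trim6 (0.44) and Acacb (0.47), the acetyl-CoA carboxylase of mitochondria. Clnk was well above background on 8 of 16 arrays, Mael and 2410003L11Rik on 11, and Pramel13 and Trim6 on 12. Ooep and Sec14l4 were so on 13, and Tex19.1 and Gtsf1l on 14. The likeness of these genes thus rests in part on dim spots. Under normexp background correction 2 of the 5 genes remained for each member, and with the deposited value table all 5 did.

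Among themselves the 3 profiles lay farther apart. Dppa3 and Dppa4 were 2.10 apart, Dppa2 and Dppa4 2.31 and Dppa2 and Dppa3 2.81. Of the other 31394 probes with a value on every array, 335 were nearer to Dppa4 than Dppa2 was, whereas 29121 were nearer to Dppa2 than Dppa4 was. Dppa2 ran from -3.07 (MEFs) to 1.93 (B6ES), and Dppa4 from -8.16 (MEFs, not well above background) to 3.57 (2-N). Because levels were not scaled, these counts do not measure how alike the patterns of Dppa2 and Dppa4 are.

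**Figure D5:**
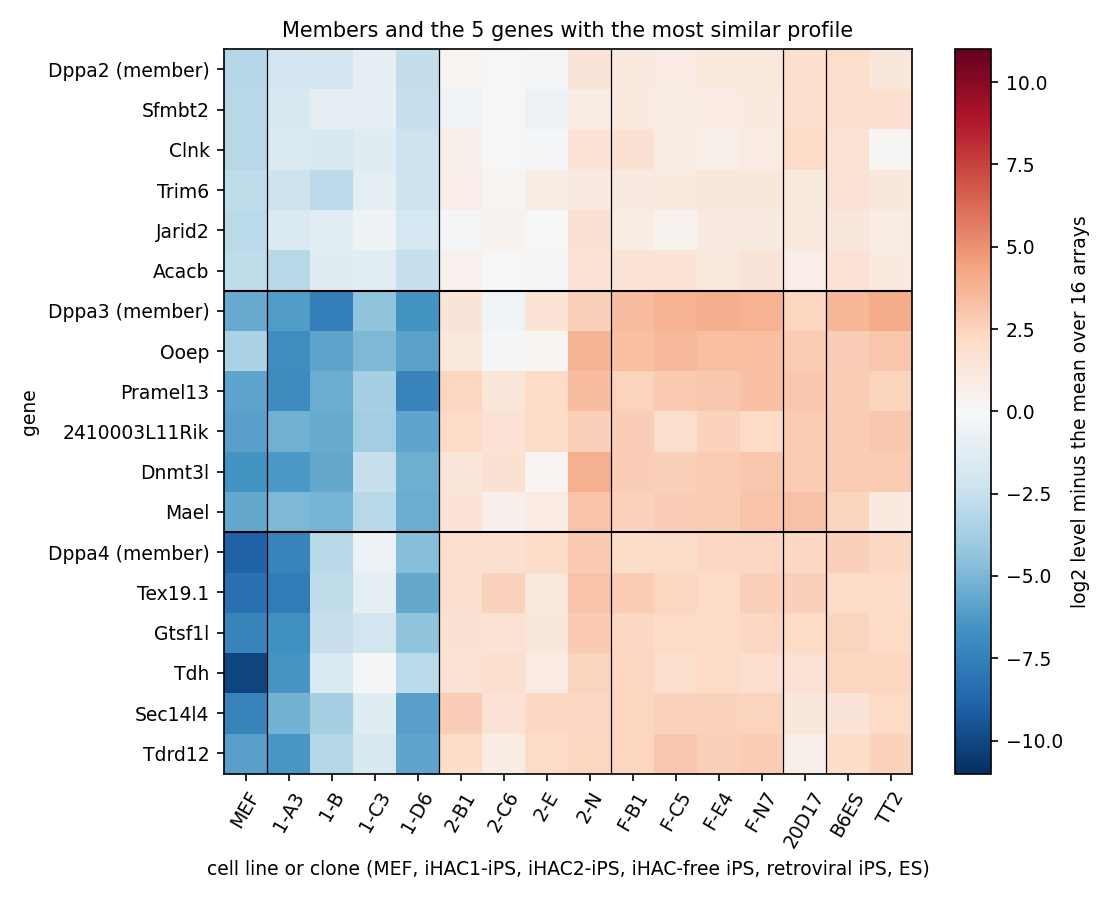
Log2 level minus the mean over the 16 arrays (colour) for Dppa2, Dppa3 and Dppa4 and for the 5 genes nearest to each in profile (rows), on each array (columns, with vertical lines between groups). In the Dppa4 block the column of 1-C3 is paler than those of 1-A3 and 1-D6, and in the Dppa3 block 2-C6 is paler than 2-N.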

How the data were processed

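Each of 16 RNA samples was hybridized by the authors to 1 Agilent whole mouse genome array with 1 colour (Cy3). The deposited scanner files hold, per spot, an intensity on a linear scale with local background subtracted, the mean and background intensity, and quality flags. The authors' GeneSpring GX 11 normalization is in the deposited value table, as log2 values centred per probe (column medians -0.325 to 0.279). Its slopes against the scanner values were 0.99985 to 1.0002, so scale and direction are settled, and it served as an alternative.

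Outlier and control spots were left out, spots of a probe were averaged, and the array's 75th percentile was subtracted from the log2 processed signal. One limma fit (lmFit, eBayes) held 6 groups. P-values were adjusted by Benjamini-Hochberg over 31423 probes, and called probes had adjusted p under 0.05 and at least 2-fold. P-values measure the spread between clones. The number of arrays limits the precision. The fit was tested on simulated data.

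Named were the 3 genes, probes within 250 kb (1 is not reported here), the 5 nearest profiles, and up to 3 called genes per list and comparison (the brightest probe of a gene). The genes and lists were chosen with earlier results of these data known. Each iHAC-free line was paired with its clone of origin, as the study gives it. Deviations from the group means correlated at -0.219 to 0.08 within pairs. Alternatives were normexp (offset 50), quantile normalization, the value table, other filters, slide and replicate blocks, compared groups only, a floor for dim values and each array left out. R 4.3.3, limma 3.58.1, Python 3.11.15, numpy 2.4.6, pandas 2.3.3 and matplotlib 3.10.9 were used. The qRT-PCR values were not analysed here.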

Additional observations from a re-analysis of the deposited data

Results flagged for a closer look

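Levels in groups of 4 were checked for an array whose gap to the nearest other exceeded the 95% limit of Dixon's test, over 150 groups of named genes, where chance gives about 1 in 20. None of the 9 groups of Dppa2, Dppa3 and Dppa4 passed the limit, and 8 others did. In iHAC-free iPS lines, Ooep was 3.40 in F-C5 (others 3.06 to 3.09), Dppa5a was 8.77 in F-B1 (others 9.04 to 9.08) and Sox7 was -2.90 in F-B1 (others -3.68 to -3.56). In iHAC2-iPS clones, 2-N stood apart in Dnmt3b, at 3.65 (others 4.67 to 4.82), and in Dazl, at -1.97, where it was the clone with a signal well above background. In iHAC1-iPS clones, Tfap2c was 0.53 in 1-B (others 1.40 to 1.53), Klf4 was 2.97 in 1-D6 (others 2.14 to 2.21) and Col3a1 was 2.34 in 1-C3 (others 3.80 to 4.10).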

How the results depend on the processing

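The calls of Dppa2 and Dppa3 against ES cells and against iHAC2-iPS clones, and that of Dppa4 against iHAC2-iPS clones, held in iHAC1-iPS under every alternative run. Dppa4 against ES cells ended when the fit held only the compared groups (-6.35, adjusted p = 0.0556). The strict filter gave values for Dppa2 alone, since the other probes failed it. Dppa3 in iHAC2-iPS against ES cells was called with normexp correction (-2.46), no filter (-2.57), the slide as a random block (-2.52) and a floor for dim values (-2.57), and against iHAC-free iPS with normexp correction (-2.44) and the floor (-2.48). Leaving out 1 array moved the Dppa2 difference of iHAC2-iPS from ES cells between -1.54 and -0.88, that of Dppa3 between -3.02 and -1.99, and Dppa3 against iHAC-free iPS between -2.94 and -1.91. The sign of Dppa3 in iHAC-free iPS against ES cells turned with quantile normalization (0.072) and with arrays left out (-0.30 to 0.13), and that of Dppa4 in iHAC2-iPS against iHAC-free iPS turned with arrays left out (-0.24 to 0.11), with no call on either side. The cause was not tested.

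With the clone of origin as a replicate block, the paired differences of iHAC2-iPS from iHAC-free iPS kept adjusted p-values of 0.361 (Dppa2), 0.124 (Dppa3) and 0.998 (Dppa4), so no call of these genes changed, and 139 in place of 256 probes were called.

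The number of called probes, the background of each count, moved more. For iHAC1-iPS against ES cells (4494) it was 2369 with normexp, 2751 with the strict filter, 2441 with the slide as a fixed block and 1867 without B6ES. For iHAC2-iPS against ES cells (2138) it ran from 19 with only the compared groups to 4485 without filter, with 319 without TT2, 371 without B6ES and 3734 without 2-C6. For iHAC-free iPS against ES cells (114) it ran from 14 to 697, and leaving out any of its 6 arrays gave 16 to 54. For iHAC1-iPS against iHAC2-iPS (6274) it was 2617 with normexp and 3244 with the strict filter. For iHAC2-iPS against iHAC-free iPS it was 104 with only the compared groups, and 982 without 2-N, 165 without 2-B1, 65 without 2-E and 40 to 55 without any of the iHAC-free lines. Signal over background limits Dppa3 in iHAC1-iPS, where 3 of 4 arrays give only a bound.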
